A study of Homo sapiens with 18 samples.

Results

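The G1 cyclins, the kinases they bind and the inhibitors of those kinases were followed as 10 genes: the D-type cyclins CCND2 and CCND3, the E-type cyclins CCNE1 and CCNE2, the kinases CDK2, CDK4 and CDK6, and the inhibitors CDKN1B, CDKN2C and CDKN2D. They were taken by their NCBI Gene IDs from the 21662 genes listed over 18 RNA-seq libraries. All 10 were listed in every library, and all 10 were among the 14396 genes with enough counts to be tested. The libraries came from SNK-10, SNT-8 and SNT-16 cells, 3 established lines of NK/T cell lymphoma that the labels call wild type. In each line, 3 libraries came from cells given icaritin, a prenylated flavonoid of Epimedium plants, for 12 h, and 3 from cells given DMSO, the solvent control, for 12 h. The sources used here give no dose of icaritin. They also do not say that replicates were separate cultures, so the p-values cover the spread among these libraries, which may be technical.

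Passage from G1 into S phase depends on D-type cyclins that activate CDK4 and CDK6 and on E-type cyclins that activate CDK2. Both kinds of complex phosphorylate the retinoblastoma protein, which then releases E2F factors that transcribe the genes of DNA replication. INK4 proteins, among them those encoded by CDKN2C and CDKN2D, bind CDK4 and CDK6, while the CIP/KIP protein encoded by CDKN1B chiefly restrains cyclin E with CDK2; in lymphocytes, mitogen and cytokine signals raise CCND2, CCND3 and CDK6 and lower the CDKN1B protein.

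The expected counts of a library, which are estimated fragments per gene, summed to between 9526431 and 10100453. Levels of 1 gene are given as CPM, counts relative to the TMM-normalized library total, and levels of different genes as deposited FPKM, which also divides by transcript length. The share of counts from RNR2, a ribosomal RNA gene of mitochondria, was larger with icaritin, 2.12% to 2.78% against 1.19% to 1.33% with DMSO in SNT-8, 4.59% to 5.12% against 1.5% to 1.55% in SNK-10, and 1.65% to 1.77% against 0.83% to 0.89% in SNT-16. Without the mitochondrially encoded genes, the number of the 10 genes called was as large in each comparison of icaritin with DMSO. PLK1, the mitotic kinase that the title of the series names as the target of icaritin, was lower with icaritin in each line, with log2 fold changes of -1.78 in SNT-8, -1.23 in SNK-10 and -1.74 in SNT-16 (edgeR adjusted p = 1.83e-06, 4.54e-05 and 2.66e-06). In SNT-8, icaritin replicate 2 stood apart, with 18.6 FPKM of PLK1 against 36.7 and 40.1 FPKM in the other icaritin replicates and with the highest RNR2 share of its line. Over all genes with enough counts, SNK-10 icaritin replicate 3 also differed more from its replicates than they did from each other. The summed level of 14 NK cell markers was 2384 to 2922 FPKM with icaritin and 2290 to 2895 FPKM with DMSO per library of the SNT lines, and 1545 to 1601 FPKM with icaritin and 1586 to 1665 FPKM with DMSO in SNK-10, with GZMB the most abundant in each group. Of these markers TYROBP, FCER1G and GNLY, named after their values were seen, averaged at most 1.503 FPKM in each group of SNT-8 and SNT-16 and at least 40.8 FPKM in each group of SNK-10. They do not stand for the list of 14, whose sum was higher in every library of the SNT lines than in any library of SNK-10. The sum of 9 T cell markers was 579 to 642 FPKM with icaritin and 750.1 to 785 FPKM with DMSO in the SNT lines, and 390.1 to 399 FPKM with icaritin and 443 to 451 FPKM with DMSO in SNK-10, with CD4, CD5, CD8A and CD28 at no more than 0.287 FPKM on any group mean; the part of this difference in the results was not tested. B and plasma cell markers were near 0, with a summed level of 6 genes of 0.3 to 2.11 FPKM per library.

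Promoter windows of 7 of the 10 genes were matched by symbol in a RefSeq table of GRCh38.p14, with 12 windows in all; CCND2, CCNE2 and CDK2 had none. The 250 bases before the start site are printed for CDKN1B and CDK6, which were higher with icaritin in every line, for CCNE1, whose level differed most between lines, and for CDK4, the near relative of CDK6 with small differences. Of the 2 windows of CDK6, the one farther upstream is shown. The stretches are chr12:12717118-12717367 on the plus strand for CDKN1B, chr7:92836574-92836823 on the minus strand for CDK6, chr19:29811741-29811990 on the plus strand for CCNE1 and chr12:57752311-57752560 on the minus strand for CDK4, each read 5′ to 3′ toward the gene, with CACGTG in capitals.
CDKN1B: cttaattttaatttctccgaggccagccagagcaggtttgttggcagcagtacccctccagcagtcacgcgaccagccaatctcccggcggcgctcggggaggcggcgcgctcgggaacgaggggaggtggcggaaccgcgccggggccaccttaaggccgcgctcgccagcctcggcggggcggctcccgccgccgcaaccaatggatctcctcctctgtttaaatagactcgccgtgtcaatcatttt
CDK6: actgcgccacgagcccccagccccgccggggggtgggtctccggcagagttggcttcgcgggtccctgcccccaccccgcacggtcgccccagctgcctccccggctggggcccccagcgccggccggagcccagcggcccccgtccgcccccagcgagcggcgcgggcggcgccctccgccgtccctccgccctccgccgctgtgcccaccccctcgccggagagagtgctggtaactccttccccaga
CCNE1: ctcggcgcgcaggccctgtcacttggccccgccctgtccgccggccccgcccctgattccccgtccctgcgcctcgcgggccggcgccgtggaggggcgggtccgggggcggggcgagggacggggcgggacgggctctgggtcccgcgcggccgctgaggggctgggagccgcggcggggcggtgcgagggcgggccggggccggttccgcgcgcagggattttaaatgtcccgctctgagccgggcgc
CDK4: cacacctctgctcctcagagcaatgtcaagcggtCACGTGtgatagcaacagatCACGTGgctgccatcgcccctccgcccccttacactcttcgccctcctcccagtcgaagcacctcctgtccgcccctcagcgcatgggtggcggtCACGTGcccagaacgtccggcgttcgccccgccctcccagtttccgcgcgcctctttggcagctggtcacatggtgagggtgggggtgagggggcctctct
CACGTG, the E-box letters that factors of the MYC family can bind, reads alike on both strands, and 7.26% of the 35116 windows of the table held it. Unlike the E2F and FOXO letters, it was added after the sequences were seen. It occurred 3 times before CDK4, with first bases at positions -216, -196 and -101 from the start site, once after the start of CDK6 at position 31, and in 2 windows of CDKN2C. The E2F letters TTTCCCGC, TTTCGCGC, TTTGCCGC and TTTGGCGC, searched on both strands, were in 0 of the 12 windows and in 3.31% of all windows. The FOXO letters TGTTTAC, also on both strands, were in 1 window of CCND3, as the reverse complement with its first base at position -2, and in 3.42% of all windows. Only exact copies of the letters were searched, so variant forms of a site would be missed. These matches describe letters only, and no binding was measured.

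Per transcript length, CCND2 was the most abundant of the 10 genes in each of the 6 groups and CDK4 the next. CCND2 had 119 ± 3.55 FPKM with icaritin and 146 ± 6.54 FPKM with DMSO in SNT-8, 133 ± 4.19 and 119 ± 2.96 FPKM in SNK-10, and 124 ± 1.78 and 147 ± 2.90 FPKM in SNT-16 (SD, n = 3 each). CCND3, CDK4 and CDK2 lay between 46.7 and 109 FPKM on the mean of every group, and neighbours in this order did not always part: the libraries of CDK4 and CCND3 overlapped with DMSO in SNT-8 and in SNK-10. CDK6 changed its place in the order of the SNT lines. In SNT-8 it averaged 35.2 FPKM with icaritin, above CCNE1 at 24.6 FPKM, and 23.5 FPKM with DMSO, below CCNE1 at 37.7 FPKM. In SNT-16 its icaritin libraries, 36.7 FPKM on the mean, overlapped those of CCNE1 at 35.2 FPKM, while with DMSO it had 23.7 FPKM, below CCNE1 at 37.9 FPKM. CDKN2D was lowest in the SNT lines, at 6.73 to 9.11 FPKM. CCNE1 was lowest in SNK-10, at 4.94 ± 0.886 FPKM with icaritin and 7.30 ± 0.558 FPKM with DMSO, where the DMSO libraries overlapped those of CDKN2D at 8.86 ± 2.71 FPKM.

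**Figure D1:**
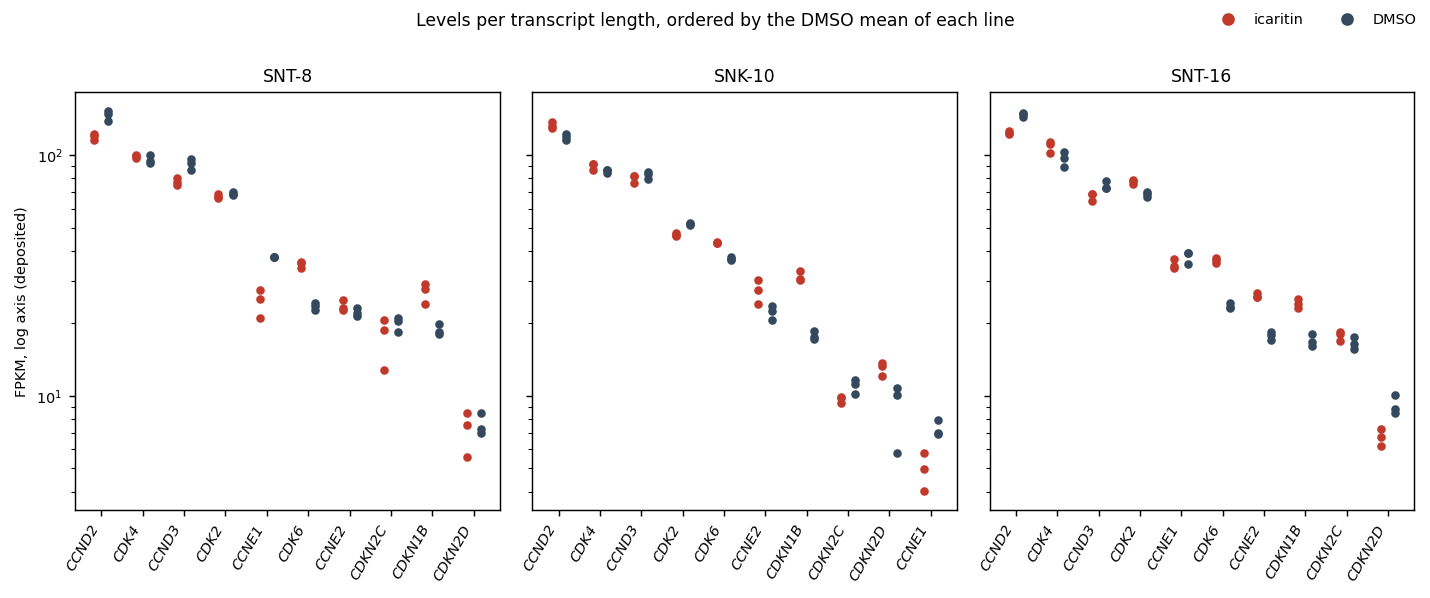
Deposited FPKM of the 10 genes on a log axis, 1 point per library, icaritin left of DMSO, with genes ordered by the DMSO mean of each line. CCND2 and CDK4 lead in each panel, CDKN2D is lowest in SNT-8 and SNT-16 and CCNE1 is lowest in SNK-10, at 4.94 FPKM with icaritin and 7.30 FPKM with DMSO.

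Between icaritin and DMSO the 10 genes changed by less than 2-fold in each line, and only CDK6 and CDKN1B were higher in all 3 lines. The largest change was that of CDKN1B in SNK-10, 1.80-fold higher with icaritin. In SNT-8, 2 of the 10 genes were higher and 4 lower with icaritin, where 24% of all genes tested were higher and 25% lower. In SNK-10, 5 were higher and 1 lower, where 24.4% of all genes were higher and 24% lower. In SNT-16, 5 were higher and 3 lower, against 21.2% and 20.8% of all genes. The 2 genes higher in each line compare with 13% of all genes, and 0 of the 10 were lower in each line, compared with 14.3%. On the average of the 3 lines, CCNE2, CDK4, CDK6 and CDKN1B were higher and CCND2, CCND3 and CCNE1 lower, 4 and 3 genes where 31.7% of all genes were higher and 30% lower. The median log2 fold change of the 10 genes was -0.10 in SNT-8, 0.15 in SNK-10 and 0.12 in SNT-16, beside 0.02, 0.01 and 0.02 for all genes, and their median absolute log2 fold change was 0.27, 0.23 and 0.22, beside 0.29, 0.28 and 0.24. The median size of change was near that of all genes. In either direction, 6, 6 and 8 of the 10 genes were called in SNT-8, SNK-10 and SNT-16, beside 49.1%, 48.4% and 42% of all genes and 62.9%, 62.4% and 56% of the 9332 genes with a mean of at least 10 CPM. All tests are edgeR's quasi-likelihood test with Benjamini-Hochberg adjustment over 14396 genes, with a threshold of 0.05. In these bulk samples, a change in the share of cells in a phase of the cycle and a change in RNA per cell cannot be told apart.

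**Figure D2:**
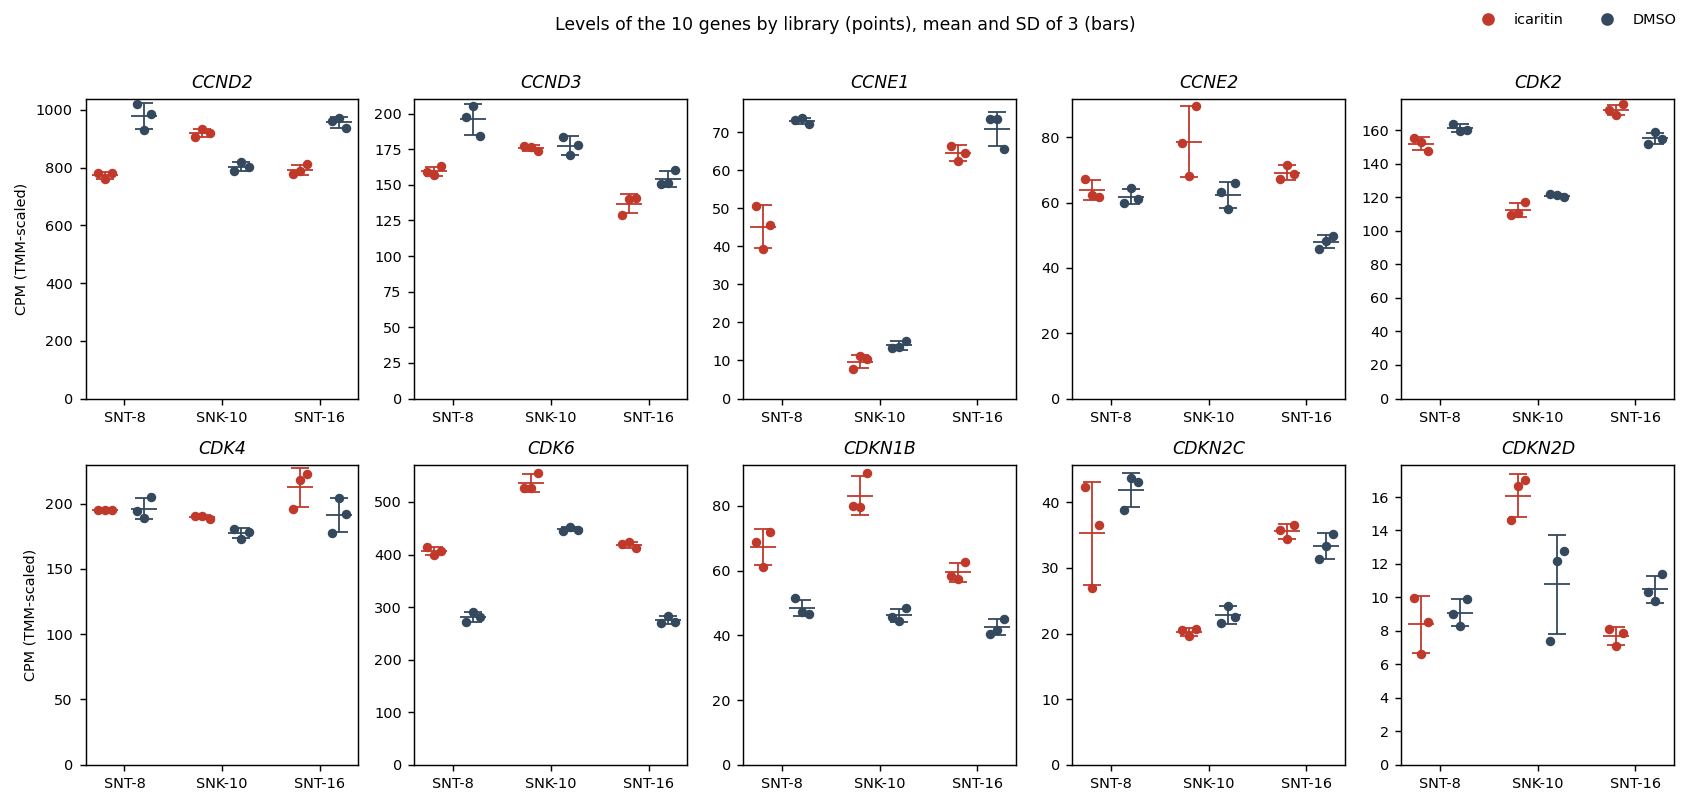
TMM-scaled CPM of each gene, 1 point per library with mean and SD of 3, icaritin left of DMSO in each line; every axis starts at 0. The icaritin libraries of CDK6 and CDKN1B lie above the DMSO libraries in all 3 lines, while those of CCND2 lie below in SNT-8 and SNT-16 and above in SNK-10.

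CCND2, the D-type cyclin of highest level here, moved in opposite directions in the lines. In SNT-8 it had 781, 759 and 781 CPM with icaritin, against 1021, 930.4 and 986 CPM with DMSO. SNT-16 cells had 776, 787 and 811 CPM with icaritin, against 960, 973 and 936 CPM with DMSO. All icaritin libraries of these lines lay below all their DMSO libraries, with log2 fold changes of -0.34 (SE 0.0413, adjusted p = 6.5e-09) and -0.27 (SE 0.0413, adjusted p = 8.02e-07). In SNK-10 the groups lay the other way: CCND2 had 906, 934 and 919 CPM with icaritin, against 787, 819.6 and 803 CPM with DMSO, a change of 0.20 on the log2 scale (SE 0.0414, adjusted p = 0.000139). The response in SNK-10 exceeded that in SNT-8 by 0.54 (SE 0.0585, adjusted p = 2.81e-08) and that in SNT-16 by 0.47 (SE 0.0585, adjusted p = 3.18e-07) on the log2 scale. In the annotation CCND2 overlaps the antisense gene CCND2-AS1, which averaged 116.6 expected counts against 8534.7 for CCND2, and the counting is not stated to use strand.

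CCND3, the D-type cyclin that T cell precursors of mice need to expand, was lower with icaritin in the SNT lines. In SNT-8 it had 159, 157 and 163 CPM with icaritin, against 198, 206 and 184 CPM with DMSO, without overlap and with a change of -0.30 on the log2 scale (SE 0.0486, adjusted p = 2.86e-06). CCND3 in SNT-16 had 129, 140.0 and 141 CPM with icaritin, against 151, 151 and 160.3 CPM with DMSO, also without overlap, with -0.17 (SE 0.0499, adjusted p = 0.00423). In SNK-10 the libraries overlapped, at 177, 176 and 174 CPM with icaritin and 184, 171 and 178 CPM with DMSO, and the 95% interval of the log2 fold change ran from -0.121 to 0.093. The test of a difference between lines passed for CCND3 (adjusted p = 0.0124), but not without SNK-10 DMSO replicate 2 (adjusted p = 0.0596). Its fall in SNT-16 did not pass without icaritin replicate 1 of that line (log2 fold change -0.13, adjusted p = 0.052).

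CCNE1, the E-type cyclin whose protein is broken down through FBXW7, was lower with icaritin in SNT-8 and SNK-10. In SNT-8 it had 50.5, 39.2 and 45.5 CPM with icaritin, against 73.1, 73.7 and 72.1 CPM with DMSO, a change of -0.69 on the log2 scale (SE 0.0745, adjusted p = 3.83e-10). In SNK-10, where CCNE1 was weakly expressed, it had 7.69, 11.2 and 10.3 CPM with icaritin, against 13.2, 13.5 and 15.2 CPM with DMSO, with -0.52 (SE 0.129, adjusted p = 0.00084). The icaritin libraries lay below the DMSO libraries in both lines. In SNT-16 they overlapped, at 66.5, 62.5 and 64.6 CPM with icaritin and 73.4, 73.5 and 65.6 CPM with DMSO, and the change of -0.14 (SE 0.0714) did not pass the threshold (adjusted p = 0.133). The log2 fold changes of SNT-8 and SNT-16 differed by -0.56 (SE 0.103, adjusted p = 0.00397); with limma on the deposited FPKM this difference did not pass (adjusted p = 0.186 with a pseudocount of 0.1).

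CCNE2, the second E-type cyclin, moved the other way. In SNT-16 it had 67.3, 71.7 and 68.7 CPM with icaritin, against 45.9, 48.3 and 49.8 CPM with DMSO, a change of 0.53 on the log2 scale (SE 0.0727, adjusted p = 1.29e-07). In SNK-10 it had 78.3, 68.2 and 89.7 CPM with icaritin, against 63.3, 57.9 and 66.0 CPM with DMSO, with 0.34 (SE 0.0706, adjusted p = 0.000129). Every icaritin library of these lines lay above every DMSO library. In SNT-8 the libraries overlapped, at 67.3, 62.5 and 61.7 CPM with icaritin and 59.9, 64.5 and 61.2 CPM with DMSO, and the 95% interval of the log2 fold change was -0.11 to 0.20. The responses in SNT-8 and SNT-16 differed by -0.48 (SE 0.102, adjusted p = 0.0179), a call that was lost without any 1 of 5 libraries: SNT-8 DMSO replicate 2 (adjusted p = 0.0527), SNT-16 DMSO replicates 1 and 2 (0.0739 and 0.06), and SNT-16 icaritin replicates 2 and 3 (0.0764 and 0.0552). It was also lost with limma on log2(FPKM + 0.1) (0.0876) and log2(FPKM + 1) (0.094). CCNE2 overlaps INTS8 and NDUFAF6 in the annotation, by gene spans that include introns. They had 545.7 and 108.4 expected counts on average against 626.1 for CCNE2. The expected counts of CCNE2 were whole numbers in every library, with no sign of fragments split between genes. How the counting treated shared bases is not stated, so the values of CCNE2 are uncertain where it could not part these genes.

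CDK6, the D-cyclin kinase prominent in lymphoid cells, was higher with icaritin in each line. In SNT-8 it had 415, 399.5 and 407 CPM with icaritin, against 272, 292 and 281 CPM with DMSO, a change of 0.53 on the log2 scale (SE 0.0424, adjusted p = 1.53e-13). SNT-16 cells held 421, 423 and 412 CPM with icaritin, against 269, 283 and 272 CPM with DMSO, with 0.61 (SE 0.0424, adjusted p = 6.05e-15). These are 1.45-fold and 1.52-fold higher levels, and each icaritin library lay above each DMSO library of its line. In SNK-10 it had 527, 526 and 556 CPM with icaritin, against 445, 453 and 447 CPM with DMSO, with 0.26 (SE 0.0414, adjusted p = 1.69e-06). The rise was smaller in SNK-10 than in SNT-8 by 0.27 (SE 0.0592, adjusted p = 0.00153) and than in SNT-16 by 0.35 (SE 0.0592, adjusted p = 5.45e-05) on the log2 scale. CDK6-AS1, which overlaps it, averaged 3.3 expected counts against 3848.3 for CDK6.

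CDK4, the other D-cyclin kinase, showed small differences. It had 195 CPM in each icaritin library, against 194, 189 and 205 CPM in DMSO libraries of SNT-8, and the 95% interval of its log2 fold change, -0.115 to 0.106, lay around 0. In SNK-10 it had 191, 191 and 188 CPM with icaritin, against 180.3, 173 and 179 CPM with DMSO, without overlap on this scale. On deposited FPKM these libraries overlapped, at 91.63, 92.11 and 86.82 FPKM with icaritin and 87.01, 84.4 and 86.89 FPKM with DMSO. The change of CDK4 in SNK-10, 0.10 (SE 0.0515), did not pass the threshold (edgeR adjusted p = 0.112). In SNT-16 it had 196, 218 and 223 CPM with icaritin, against 178, 204 and 192 CPM with DMSO. There the libraries overlapped and the log2 fold change was 0.15 (SE 0.0504, adjusted p = 0.015). That call was lost without SNT-16 DMSO replicate 1 (0.099, adjusted p = 0.163) or without icaritin replicate 2 or 3 of that line (0.13 and 0.11, adjusted p = 0.0767 and 0.123), and the call on the average of the lines was lost without that DMSO replicate (adjusted p = 0.0585) or that icaritin replicate 3 (adjusted p = 0.0514). CDK4 overlaps TSPAN31, with 171.6 expected counts on average against 1903.3.

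CDK2, the partner of the E-type cyclins, was higher with icaritin in SNT-16, at 172, 169 and 175 CPM, against 152, 159 and 155 CPM with DMSO, a change of 0.15 on the log2 scale (SE 0.0449, adjusted p = 0.00611). In the other lines its icaritin libraries lay below the DMSO libraries on CPM, by amounts that did not pass. On deposited FPKM the SNT-8 libraries overlapped, at 68.91, 66.79 and 66.32 FPKM with icaritin and 70.03, 68.47 and 69.21 FPKM with DMSO. SNT-8 had 155, 153 and 148 CPM with icaritin, against 164, 159.7 and 160.3 CPM with DMSO (log2 fold change -0.087, adjusted p = 0.111), and SNK-10 had 109, 111 and 117 CPM with icaritin, against 122, 121 and 119.9 CPM with DMSO (-0.11, adjusted p = 0.0641). Without SNK-10 icaritin replicate 3 the SNK-10 value was -0.14 and passed (adjusted p = 0.0251), as it did when libraries were scaled by their totals alone (-0.14, adjusted p = 0.00843). Of 28 settings it passed in 6 and stayed short of the threshold in 22. The others that passed were limma on log2(FPKM + 0.1) (0.00139) and log2(FPKM + 1) (0.00126), the fit of that line (0.0413) and a mean of at least 1 CPM (0.0444). The responses of CDK2 in SNK-10 and SNT-16 differed by -0.26 (SE 0.0657, adjusted p = 0.00646).

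CDKN1B, which encodes the CDK2 inhibitor p27, was higher with icaritin in each line. In SNK-10 it had 79.8, 79.5 and 90.1 CPM with icaritin, against 45.8, 44.4 and 48.3 CPM with DMSO, a change of 0.85 on the log2 scale (SE 0.0685, adjusted p = 2.23e-13). In SNT-8 it had 69.0, 61.1 and 71.8 CPM with icaritin, against 51.4, 47.3 and 46.7 CPM with DMSO, with 0.47 (SE 0.0685, adjusted p = 2.44e-07). CDKN1B in SNT-16 had 58.4, 57.3 and 62.6 CPM with icaritin, against 40.4, 41.7 and 45.2 CPM with DMSO, with 0.49 (SE 0.0706, adjusted p = 3.62e-07). All 9 icaritin libraries lay above the highest DMSO library of any line. The rise in SNK-10 exceeded that in SNT-8 by 0.37 (SE 0.0972, adjusted p = 0.00791) and that in SNT-16 by 0.36 (SE 0.0987, adjusted p = 0.0108); the difference from SNT-16 did not pass without SNT-16 DMSO replicate 3 (0.32, adjusted p = 0.0505), nor that from SNT-8 with limma on log2(FPKM + 0.1) (0.30, adjusted p = 0.0607) or log2(FPKM + 1) (0.28, adjusted p = 0.0536).

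CDKN2D, which encodes the INK4d inhibitor and was the least abundant of the 3 inhibitors among the 10 genes in the SNT lines, moved in opposite directions. In SNK-10 it had 14.6, 16.7 and 16.99 CPM with icaritin, against 7.37, 12.2 and 12.8 CPM with DMSO, a change of 0.58 on the log2 scale (SE 0.143, adjusted p = 0.00092). DMSO replicate 1 was low there, and without it the change was 0.37 (adjusted p = 0.027). In SNT-16 it had 8.09, 7.11 and 7.90 CPM with icaritin, against 10.3, 9.81 and 11.4 CPM with DMSO, with -0.45 (SE 0.158, adjusted p = 0.0211). Groups did not overlap in either line, but the fall in SNT-16 did not pass without its DMSO replicate 3 (adjusted p = 0.0952) or its icaritin replicate 2 (adjusted p = 0.0855). In SNT-8 the libraries overlapped, at 9.98, 6.62 and 8.55 CPM with icaritin and 9.01, 8.30 and 9.91 CPM with DMSO. The responses in SNK-10 and SNT-16 differed by 1.03 on the log2 scale (SE 0.213, adjusted p = 0.000861), which is the largest difference between lines among the 10 genes.

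CDKN2C, which encodes the INK4c inhibitor that restrains the division of lymphocytes in mice, passed the threshold in SNT-8 alone, with a call that rested on single libraries. In SNT-8 it had 42.3, 26.9 and 36.6 CPM with icaritin, against 38.9, 43.6 and 43.1 CPM with DMSO; the groups overlapped, and the change was -0.25 on the log2 scale (SE 0.0958, adjusted p = 0.0328). Icaritin replicate 2, the library with the lowest PLK1, was low, and without it the change was -0.086 (adjusted p = 0.4). The call was also lost without DMSO replicate 2 (adjusted p = 0.113) or 3 (adjusted p = 0.0985), and without icaritin replicate 1 the change was -0.40 (adjusted p = 0.00059). In SNK-10 it had 20.5, 19.6 and 20.7 CPM with icaritin, against 21.6, 24.3 and 22.5 CPM with DMSO (log2 fold change -0.17, adjusted p = 0.242). In SNT-16 it had 35.8, 34.4 and 36.6 CPM with icaritin, against 31.4, 33.4 and 35.3 CPM with DMSO (0.093, adjusted p = 0.485).

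**Figure D3:**
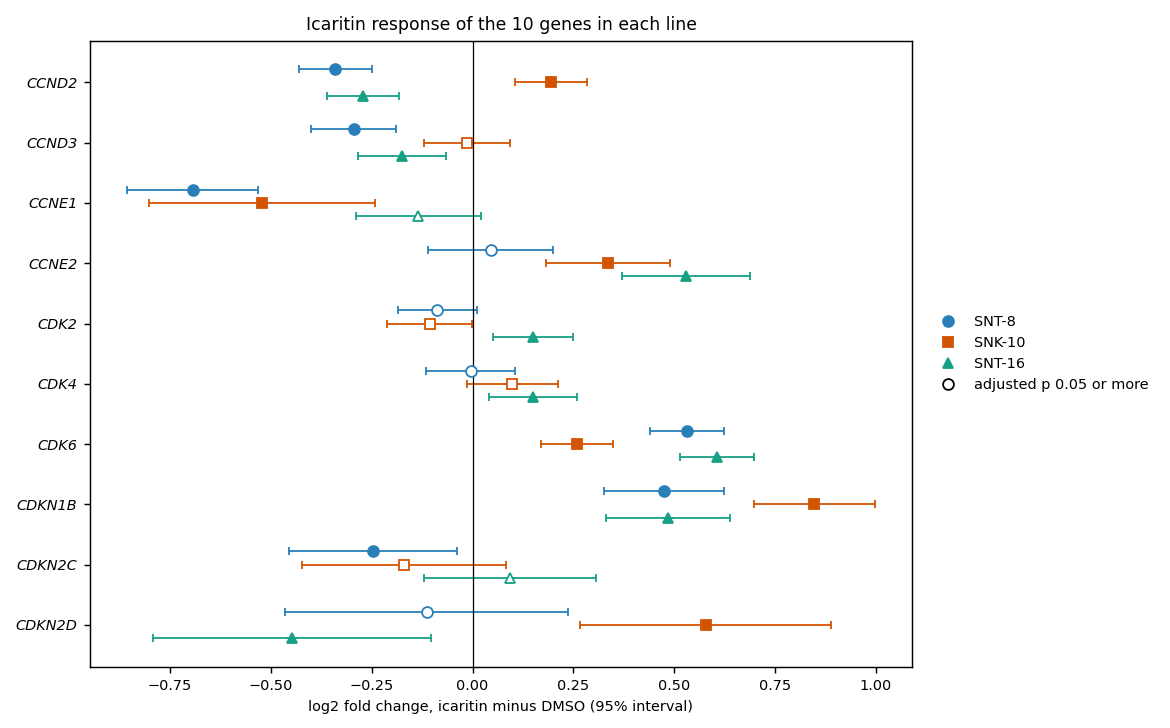
Log2 fold change (icaritin minus DMSO) of each gene in SNT-8, SNK-10 and SNT-16, with 95% intervals; filled symbols passed the threshold on the adjusted p. CDK6 and CDKN1B lie right of 0 in each line, and CCND2 lies left of 0 in SNT-8 (-0.34) and SNT-16 (-0.27) and right of it in SNK-10 (0.20).

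Within pairs of related genes, the balance of RNA per length parted icaritin from DMSO libraries in each line for the E-type cyclins and for the D-cyclin kinases; these shares are descriptions with no test. CCNE1 made up 50.8% ± 2.37 of the FPKM of CCNE1 and CCNE2 with icaritin and 62.9% ± 0.855 with DMSO in SNT-8, 15.4% ± 3.50 and 24.7% ± 0.907 in SNK-10, and 57.5% ± 1.65 and 68.1% ± 2.17 in SNT-16 (SD, n = 3 each). It was lower in every icaritin library than in every DMSO library of the line. In SNT-16 this came with a higher CCNE2, in SNT-8 with a lower CCNE1 and in SNK-10 with both. CDK6 made up 26.3% ± 0.367 of the FPKM of CDK4 and CDK6 with icaritin and 19.7% ± 0.990 with DMSO in SNT-8, 32.5% ± 0.855 and 30.1% ± 0.626 in SNK-10, and 25.2% ± 1.48 and 19.7% ± 0.747 in SNT-16, again without overlap in any line. CCND2 held 60.6% ± 0.350 of the FPKM of the D-type cyclins with icaritin and 61.4% ± 2.08 with DMSO in SNT-8, where the libraries overlapped; in SNK-10 its share was 62.4% ± 0.553 with icaritin and 59.0% ± 1.41 with DMSO, without overlap, and in SNT-16 64.8% ± 0.873 and 66.3% ± 1.26, with overlap. The summed FPKM of the D-type over the E-type cyclins was 3.12 ± 0.126 with icaritin and 3.99 ± 0.132 with DMSO in SNT-16, without overlap, and overlapped in the other lines. The FPKM of the 3 inhibitors over that of the 3 kinases was 0.299 ± 0.0136 with icaritin and 0.215 ± 0.0213 with DMSO in SNK-10. In SNT-8 (0.256 ± 0.0360 and 0.246 ± 0.00396) and SNT-16 (0.218 ± 0.0109 and 0.226 ± 0.0158) the libraries overlapped. This ratio leaves out CDKN1A and CDKN2A, each with a higher mean FPKM than any of these 3 inhibitors in every group. CDKN1A averaged 187.5 FPKM with icaritin and 142.7 FPKM with DMSO in SNT-8. It had 180.4 and 170.1 FPKM in SNK-10, and 244 and 176 FPKM in SNT-16. The ratio therefore describes these 3 genes and not the CDK inhibitors as a whole.

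**Figure D4:**
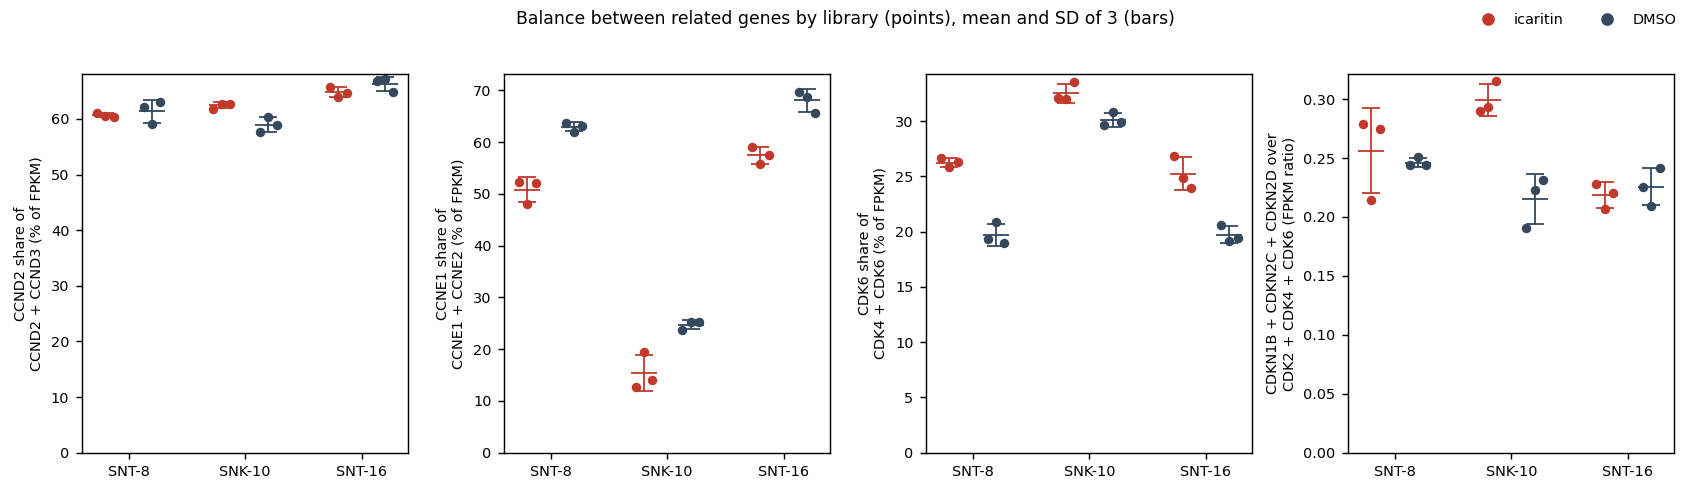
Shares and ratios of deposited FPKM by library (points) with mean and SD of 3, icaritin left of DMSO: CCND2 of the D-type cyclins, CCNE1 of the E-type cyclins, CDK6 of CDK4 plus CDK6, and the 3 inhibitors over the 3 kinases; axes start at 0. The CCNE1 share is lower and the CDK6 share higher with icaritin in each line. The ratio of these 3 inhibitors to the 3 kinases parts the groups in SNK-10 (0.299 with icaritin, 0.215 with DMSO). The more abundant CDKN1A and CDKN2A are not in this ratio.

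The response to icaritin differed between lines for 8 of the 10 genes, all but CDK4 (adjusted p = 0.282) and CDKN2C (adjusted p = 0.183), by a test with 2 degrees of freedom. Of all genes tested, 14.3% passed this test, and of the 9332 genes with a mean of at least 10 CPM, which include all 10, 19.8% passed. The smallest adjusted p was that of CCND2 (1.07e-08), then that of CDK6 (8.39e-05). CDKN2C passed without SNT-8 icaritin replicate 1 (adjusted p = 0.0182). Between SNK-10 and SNT-8 the responses of CCND2, CCND3, CDK6, CDKN1B and CDKN2D differed, 5 genes where 10.8% of all genes did; CDKN2D had 0.69 (SE 0.215, adjusted p = 0.0311), a call lost without SNT-8 DMSO replicate 1 or 3, SNT-8 icaritin replicate 2, SNK-10 DMSO replicate 1, or SNK-10 icaritin replicate 2 or 3, at adjusted p between 0.0574 and 0.125, and with library totals (0.0709). With limma on log2(FPKM + 0.1), 3 of these 5 did not pass: CCND3 (0.0684), CDKN1B (0.0607) and CDKN2D (0.101). Between SNK-10 and SNT-16 those of CCND2, CDK2, CDK6, CDKN1B and CDKN2D differed, 5 genes where 12.5% of all genes did. Between SNT-8 and SNT-16 only those of CCNE1 and CCNE2 did, 2 genes where 0.438% of all genes did; CDK2, with an adjusted p of 0.0741, passed there without SNT-8 icaritin replicate 2 (0.0443) or SNK-10 icaritin replicate 3 (0.0391). Of the E-type cyclins in the pairs with SNK-10, CCNE1 against SNT-8 did not pass (0.17, adjusted p = 0.538). CCNE2 against SNT-8 (adjusted p = 0.0558) passed without SNT-8 icaritin replicate 1 (0.0403), SNK-10 DMSO replicate 3 (0.0464) or SNK-10 icaritin replicate 2 (0.00584). In edgeR it also passed with DESeq2 size factors (0.046), no filter (0.02), a mean of at least 1 CPM (0.0487) and a replicate block (0.0423). Against SNT-16, CCNE1 (adjusted p = 0.0804) passed without icaritin replicate 2 of SNT-8 (0.042) or of SNK-10 (0.0398), and with library totals (0.0462). CCNE2 against SNT-16 (adjusted p = 0.241) passed without SNK-10 icaritin replicate 3 (0.0316).

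With DMSO, CCNE1 set SNK-10 apart from the SNT lines more than any other of the 10 genes. It averaged 13.97 ± 1.10 CPM in SNK-10, against 73.0 ± 0.825 CPM in SNT-8 and 70.8 ± 4.56 CPM in SNT-16 (SD, n = 3 each), with log2 differences of -2.38 (SE 0.0909, adjusted p = 4.05e-24) and -2.34 (SE 0.0912, adjusted p = 7.79e-24). CDKN2C was lower in SNK-10 as well, at 22.8 ± 1.35 CPM against 41.9 ± 2.61 CPM in SNT-8 and 33.4 ± 1.93 CPM in SNT-16, and so was CDK2, at 121 ± 0.920 CPM against 161 ± 2.12 CPM and 155 ± 3.52 CPM. CDK6 was higher in SNK-10, at 448 ± 3.83 CPM against 282 ± 9.74 CPM in SNT-8 and 275 ± 7.37 CPM in SNT-16, with log2 differences of 0.67 (SE 0.0423, adjusted p = 4.08e-17) and 0.71 (SE 0.0424, adjusted p = 8.32e-18). Between SNK-10 and SNT-8, 7 of the 10 genes differed past the threshold, as did 57.6% of all genes; between SNK-10 and SNT-16, 7 did, as did 57.8%. Of these, CCND3 (adjusted p = 0.012) and CDK4 (adjusted p = 0.0154) did not pass against SNT-8 without SNK-10 DMSO replicate 2 (0.0909 and 0.0779), nor CCND3 without SNT-8 DMSO replicate 2 (0.101) and CDK4 without replicate 3 of that group (0.1). Between SNT-8 and SNT-16, CCND3, CCNE2 and CDKN2C were higher in SNT-8, 3 genes where 13.2% of all genes differed. CCND3 had 196 ± 10.7 CPM in SNT-8 against 154 ± 5.43 CPM in SNT-16 (log2 difference 0.35, SE 0.0488, adjusted p = 1.91e-06). The call of CDKN2C (adjusted p = 0.0209) was lost without DMSO replicate 2 or 3 of SNT-8 (0.0903 and 0.0844) or 1 or 2 of SNT-16 (0.102 and 0.0669), with library totals (0.0654) and with limma (0.155 with a pseudocount of 0.1). The DMSO libraries also serve the contrasts with icaritin, so DMSO levels and responses are not independent of each other.

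Of 10 further genes of the family, CCND1 and CDKN1C had too few counts to be tested, at most 0.1 and 0.36 FPKM in any library. CDKN1A, which encodes the CIP/KIP inhibitor p21 that p53 induces, was the most abundant inhibitor, at 188 ± 18.7 FPKM with icaritin and 143 ± 4.09 FPKM with DMSO in SNT-8, 180.4 ± 6.93 and 170.1 ± 3.83 FPKM in SNK-10, and 244 ± 9.99 and 176 ± 9.69 FPKM in SNT-16. It was higher with icaritin in the SNT lines, with log2 fold changes of 0.35 (adjusted p = 4.22e-06) and 0.44 (adjusted p = 6.42e-08), and its 0.11 in SNK-10 did not pass (adjusted p = 0.0938). CDKN2A, an INK4 gene that also encodes ARF, was higher in each line, with 0.44, 0.67 and 0.38 in SNT-8, SNK-10 and SNT-16. CDKN2B, its neighbour, was also higher in each line (0.94, 0.34 and 0.71), with 0.333 to 0.697 FPKM on the group means of the SNT lines and 8.68 ± 0.642 FPKM with icaritin and 6.97 ± 0.276 FPKM with DMSO in SNK-10. CCNC, cyclin C, was lower in each line (-0.49, -0.44 and -0.29), and it set SNK-10 apart with 3.08 ± 0.337 FPKM with icaritin and 4.12 ± 0.453 FPKM with DMSO, where the SNT lines had at least 23.2 FPKM on every group mean. Of the CDK-activating kinase, CCNH was lower in SNT-8 and SNK-10 (-0.23 and -0.28), and CDK7 and MNAT1 passed in 0 of 3 lines, with log2 fold changes from -0.14 to 0.19. CDK3 was weak, at most 2.06 FPKM on a group mean, and was lower in SNT-8 (-1.31, adjusted p = 0.00209).

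Around the 10 genes, the lists of the pathway other than the G2/M genes held genes called higher and genes called lower in each line. Of all genes tested, 24% were higher and 25% lower in SNT-8, 24.4% and 24% in SNK-10, and 21.2% and 20.8% in SNT-16. Up to 4 genes with the smallest p on the average of the lines are named per list, besides FOXO1 and FOXO4. Of 17 genes of the RB and E2F list, 6 were higher and 4 lower in SNT-8, 8 and 4 in SNK-10, and 6 and 4 in SNT-16. E2F7, a repressor among the E2F factors, was higher (average log2 fold change 0.95, SE 0.0369) and E2F5 lower (-1.23, SE 0.0792), while the E2F partner TFDP2 (0.61) and the RB relative RBL2 (0.34) were higher on the average. Of 27 E2F target genes of G1/S, 11 were higher and 7 lower in SNT-8, 8 and 13 in SNK-10, and 13 and 4 in SNT-16; CDT1, which loads the replicative helicase, was higher (0.95, SE 0.0292), as were TYMS (0.48) and TK1 (0.50) of thymidylate synthesis, and cyclin A gene CCNA2 was lower (-0.45, SE 0.0301). Of 19 genes for turnover and assembly of these proteins, 3 were higher and 6 lower in SNT-8, 4 and 6 in SNK-10, and 4 and 5 in SNT-16. They included CUL1 (-0.54), the scaffold of the SCF ubiquitin ligase, CKS2 (-0.96), a small subunit of CDK complexes, CUL4A (-0.25) and FBXW7 (0.68). Of 17 upstream regulators, 7 were higher and 3 lower in SNT-8, 9 and 2 in SNK-10, and 4 and 5 in SNT-16. MYC, known to raise CCND2 and CDK4, was lower (-1.25, SE 0.0446) and ATF4 higher (0.76, SE 0.0258). FOXO factors can transcribe CDKN1B. Of those in the list, FOXO3 was higher on the average (0.95, SE 0.0447) and FOXO1 lower (-0.27, SE 0.0533). FOXO4 did not pass (0.07, edgeR adjusted p = 0.493). STAT5A, which carries cytokine signals to D-type cyclins, was higher in SNT-8 (0.28) and SNK-10 (0.75) and had -0.02 in SNT-16, a difference between lines that passed (adjusted p = 3.21e-10).

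Of 12 G2/M genes, 11 were lower and 0 higher in SNT-8, 9 lower and 1 higher in SNK-10, and 11 lower and 1 higher in SNT-16, with median log2 fold changes of -0.64, -0.49 and -0.56 beside 0.02, 0.01 and 0.02 for all genes. KIF20A (-1.68), CDC20 (-1.54), BIRC5 (-0.55) and CCNB2 (-0.57), all of them genes of mitosis, had the smallest p on the average of the lines. Whether cells had moved between phases of the cycle was not tested, since these data hold RNA of whole cultures.

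**Figure D5:**
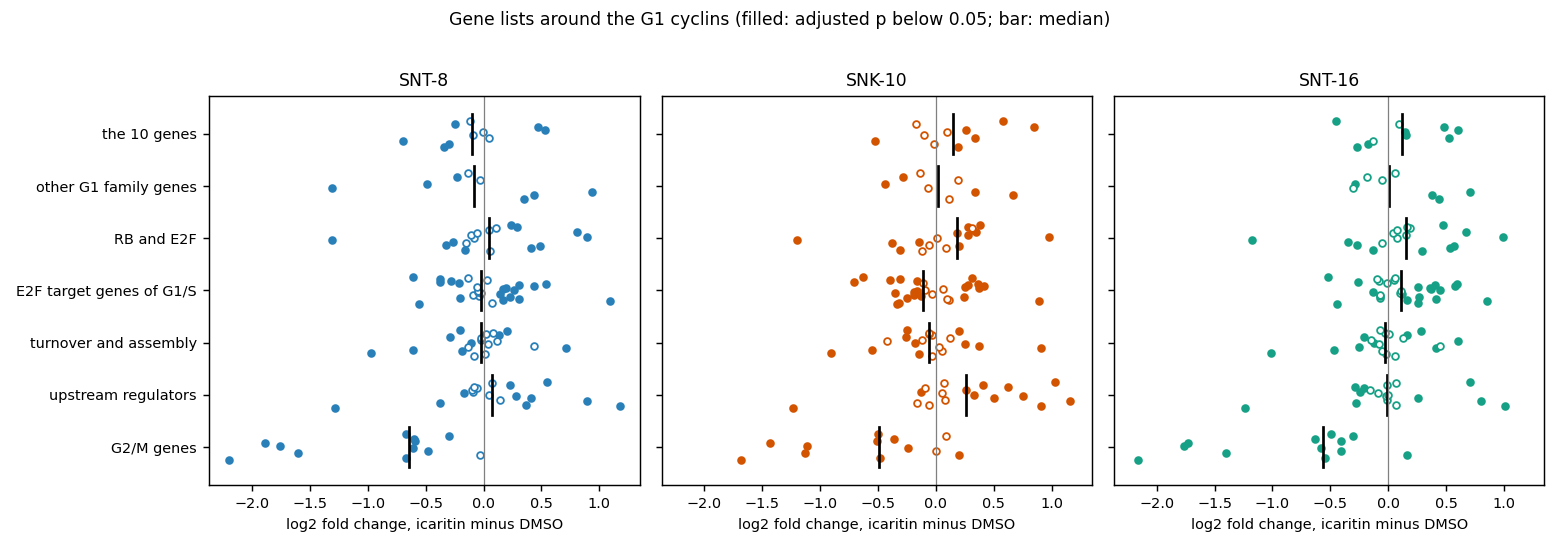
Log2 fold change (icaritin minus DMSO) of each tested gene by list and line, filled where the adjusted p was below 0.05, with the median of each list as a bar. The G2/M genes lie to the left, with medians of -0.64, -0.49 and -0.56, and the 10 G1 genes lie on both sides of 0.

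As a description over the 18 libraries, the genes whose log2 CPM followed CDK6 most closely, among 9322 candidates with a mean of at least 10 CPM, were MYO1G, an unconventional myosin of lymphocytes (Pearson's r 0.98), SLC1A4, a neutral amino acid transporter (0.98), and FSD1L (0.976). For CCNE1 they were GPR180 (0.992), PIK3AP1, an adaptor of PI3K signalling (0.992), and ZNF518B (0.991). The 18 points share lines and treatments and are not independent.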

How the data were processed

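Gene-level RNA-seq values of 18 libraries were read from 1 deposited table per library, keyed by NCBI Gene ID. Per the labels' protocols, total RNA was extracted with Trizol and 1 ug went into an MGIEasy kit; per the submitters' processing notes, Bowtie2 and HISAT were used. The sources used here do not give the build, the settings or the strandedness of counting. Per the file headers, the authors deposited expected counts, not scaled to depth, and FPKM, scaled by transcript length and depth; the files also list the transcript length. Genes missing from a file were set to 0. Symbols and overlapping genes came from a RefSeq table of GRCh38.p14, by ID for 21559 of 21662 genes and by transcript for 24; 79 had no name.

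Rounded expected counts were fitted with edgeR 4.0.16 in R 4.3.3: filterByExpr (minimum count 10, minimum total 15), TMM scaling, and a robust quasi-likelihood fit with a mean for each of 6 groups and 12 residual degrees of freedom. Contrasts were icaritin minus DMSO per line, their average over 3 lines, the interaction, pairs of lines and pairs of DMSO groups, all two-sided, with Benjamini-Hochberg adjustment over 14396 genes and a threshold of 0.05. The SE is the size of the log2 fold change over the root of its F statistic. The common biological coefficient of variation, over all genes, was 4.4%.

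Replicates differed by more than sampling noise: for genes averaging at least 50 counts, chi-square per gene was 1.37 to 8.18. The highest values were those of SNT-8 icaritin replicate 2 (5.96 and 8.18, against 3.07 between replicates 1 and 3). Next came SNK-10 icaritin replicate 3 (3.41 and 4.13, against 1.53 between replicates 1 and 2). Depth per library was 9526431 to 10100453 expected counts, which limits weakly expressed genes such as CDKN2D and, in SNK-10, CCNE1. The members and the gene lists were chosen with earlier results of these data known. All 10 members and all 10 further family genes are given. From each other list, up to 4 genes with the smallest p of the average are given, with FOXO1 and FOXO4 added beside FOXO3. The 3 closest followers are given for the member with the smallest p among those higher and for the one among those lower. Promoter letters for E2F and FOXO were set with the other choices, and the E-box letters were added after the sequences were seen. Alternatives were other scaling (library totals, size factors of DESeq2 1.42.0), no filter, a mean of at least 1 CPM, DESeq2, limma 3.58.1 on log2(FPKM + 0.1) and log2(FPKM + 1), fits of 1 line, no mitochondrial genes, a replicate block, and leaving out each of the 18 libraries.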

Additional observations from a re-analysis of the deposited data

Results flagged for a closer look

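For 8 of the 10 genes the response to icaritin differed between lines by the interaction test of edgeR, with adjusted p of 1.07e-08 for CCND2, 0.0124 for CCND3, 0.000482 for CCNE1, 0.00265 for CCNE2, 0.0056 for CDK2, 8.39e-05 for CDK6, 0.00651 for CDKN1B and 0.0019 for CDKN2D. Of all genes tested 14.3% passed this test, and 19.8% of those with a mean of at least 10 CPM. The call of CCND3 was lost with library totals (adjusted p = 0.0894), without SNK-10 DMSO replicate 2 (0.0596) and with limma on log2(FPKM + 0.1) (0.124) and log2(FPKM + 1) (0.114). That of CDKN1B was lost with both limma fits (0.0582 and 0.0512). For CCND2 the direction itself differed: icaritin libraries lay above DMSO libraries in SNK-10 (log2 fold change 0.20) and below them in SNT-8 (-0.34) and SNT-16 (-0.27). CDKN2D had 0.58 in SNK-10 and -0.45 in SNT-16. CDK6 and CDKN1B were higher with icaritin in each line and differed in size, CDK6 with the smaller rise in SNK-10 (0.26) and CDKN1B with the larger (0.85). CCNE1 and CCNE2 differed between SNT-8 and SNT-16 (-0.69 and -0.14 for CCNE1, 0.045 and 0.53 for CCNE2), a pair of lines between which 0.438% of all genes did. With limma on log2(FPKM + 0.1) and log2(FPKM + 1) neither of these passed (adjusted p = 0.186 and 0.157 for CCNE1, 0.0876 and 0.094 for CCNE2), and that of CCNE2 was also lost without any 1 of 5 libraries.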

How the results depend on the processing

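The number of the 10 genes called stayed within 1.5 times the reported number in each setting tried. It was 5 to 6 in SNT-8 (6 reported), 6 to 7 in SNK-10 (6), 7 to 9 in SNT-16 (8), 7 on the average (7) and 6 to 8 in the interaction (8); leaving out 1 library at a time gave 5 to 6, 6 to 7, 6 to 8, 6 to 8 and 7 to 9. Replicate numbers did not pair the libraries (correlation of deviations -0.129 to 0.042), and a replicate block within line left 6, 6, 8, 7 and 8 genes called; it added the difference of CCNE2 between SNK-10 and SNT-8 (0.29, adjusted p = 0.0423, against 0.0558). Over single genes, contrasts and settings, 2822 values kept their side of the threshold, 58 lost it, 30 gained it and 0 called values changed sign; the causes were not tested. CDKN2C in SNT-8 lost its call in 8 of 28 settings, among them library totals (adjusted p = 0.106), DESeq2 (0.0509) and limma (0.132). CDKN2D in SNT-16 lost it with limma (0.0692), and the interaction was lost for CCND3 with library totals (0.0894) and limma (0.124) and for CDKN1B with limma (0.0582). CCNE1 in SNT-16 gained a call in the fit of that line (adjusted p = 0.0364). Of values that had not passed, those near 0 changed sign in some settings: CCND3 in SNK-10 (-0.046 to 0.012), CDK4 in SNT-8 (-0.030 to 0.043), and CDKN2D in SNT-8 (-0.256 to 0.029) and on the average (-0.065 to 0.054). Scaling moved the median log2 fold change of all genes to between -0.021 and 0.068. At this depth, CDKN2D and, in SNK-10, CCNE1 rest on few counts (66 to 155 for CDKN2D, 71 to 144 for CCNE1).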
